A study of Mus musculus with 41 samples.

Results

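Mouse chromosome 14 carries Bap1, and its DNA was read in 14 mesothelioma tumors as 20-kb bins. The bins described here are all 5511 bins of chromosome 14 among the 122257 bins of the genome-wide table, chosen by position alone. By the labels 10 of the tumors were BNC (genotype Bap1-/-;Nf2-/-;Cdkn2ab-/-) and 4 were NC (Nf2-/-;Cdkn2ab-/-), so every tumor is labelled as lacking Nf2 and Cdkn2ab. In the study's methods the floxed alleles were recombined by adenoviral Cre under the CMV promoter, injected into the pleural space of mice of mixed background. By a figure legend of the study, the Cdkn2ab allele lacked Ink4a and Ink4b in the germline with p19Arf still conditional. The columns of the table are headed by a tumor number (B2 to B31), an animal number and a site, and none names a genotype. BNC and NC tumors were therefore not compared, and each tumor is given by its own number. B20 and B21 share an animal number, so the 14 tumors came from 13 animals.

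BAP1 is a nuclear deubiquitinase that removes the ubiquitin placed on histone H2A by Polycomb repressive complex 1, and it acts as a tumor suppressor in the mesothelium. In human mesothelioma the gene is lost through point mutations, through deletions too short for many copy number assays, and through loss of the short arm of chromosome 3, which also carries PBRM1. In the mouse, Pbrm1 lies close to Bap1 on chromosome 14, whereas Rb1, Lats2 and the T cell receptor alpha/delta locus lie farther along the same chromosome.

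Mouse Bap1 (chromosome 14 of mm10, 31251450 to 31259944, plus strand) lay wholly within 1 bin, 31240001 to 31260000, together with most of Phf7. The alleles of the model have loxP sites around exons 6 to 12 of the 17 exons. From the start of exon 6 to the end of exon 12 the gene spans 2759 bases, or 13.8% of the bin. The loxP sites lie outside these exons at positions not known here, so this span is the least that the engineered deletion removes. Exon 5 ends at 31253575 and exon 13 starts at 31257289. Both edges of the span from exon 6 to exon 12 are shown. Exon bases are in capitals and 20 intron bases on each side are in lower case, on the plus strand of GRCm38, for chr14:31254013-31254114 and chr14:31256641-31256811.
Bap1 exon 6: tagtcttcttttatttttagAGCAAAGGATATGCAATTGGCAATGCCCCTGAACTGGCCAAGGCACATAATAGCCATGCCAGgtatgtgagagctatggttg
Bap1 exon 12: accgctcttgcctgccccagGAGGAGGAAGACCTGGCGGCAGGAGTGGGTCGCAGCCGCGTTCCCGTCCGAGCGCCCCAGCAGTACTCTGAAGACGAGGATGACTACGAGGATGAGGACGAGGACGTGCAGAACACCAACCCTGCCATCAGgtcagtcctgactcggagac

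The values are log2 read counts per bin that the authors corrected for GC content and mappability. Each tumor was centred on its median autosomal bin, so that 0 is the usual level of that tumor. The number of reads behind a bin is unknown. The noise of a bin, the scaled median absolute difference of successive bins, was between 0.110 (B31) and 0.155 (B5). Chromosome X shows the scale of a copy change: its median was between -1.05 and -0.98 in 6 tumors and between -0.016 and 0.030 in the other 8, against -1 for 1 copy in place of 2. B5 went against the shared label at Cdkn2b, the gene of Ink4b: its Cdkn2b bin stood -0.075 from the neighbouring bins, within its noise of 0.155, whereas the other 13 tumors stood between -1.65 (B21) and -0.56 (B31). Results at Bap1 and over the chromosome are therefore also given without B5. The samples are bulk tumor pieces, in which a lower copy number in tumor cells and a larger share of normal cells cannot be told apart by the level alone.

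Chromosome 14 as a whole stood at the level of the other autosomes in the tumors. Its median bin was lowest in B28 (-0.043), highest in B5 (0.013) and 0.0027 at the median of the 14 tumors, which is small beside the shift of 0.58 that 3 copies in place of 2 would give. Averaged over tumors the level was -0.0014 ± 0.014 (SD, n = 14), with 6 tumors below 0 and 8 above (p = 0.84, adjusted p = 0.84, exact sign-flip permutation test, two-sided, Benjamini-Hochberg adjustment over 19 autosomes). Without B28 the mean turned to 0.0018, and without B5 it was -0.0025. Of the other 18 autosomes 9 passed the same test with means between -0.013 and 0.0091, the smallest of them in size being -0.0050 on chromosome 10.

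**Figure D1:**
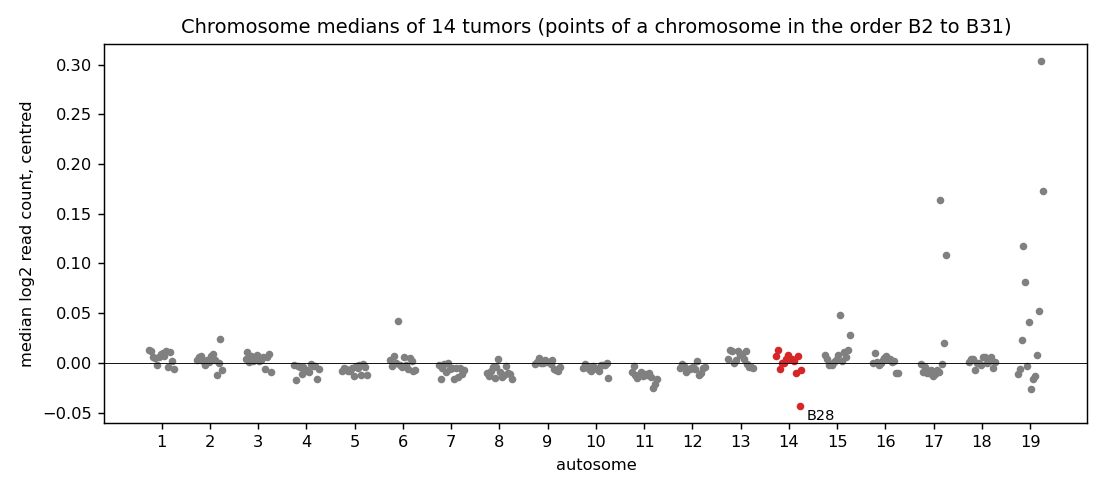
Median log2 read count of each of the 19 autosomes (vertical axis, centred on the median autosomal bin) with 1 point per tumor in the order B2 to B31 and chromosome 14 in red. The chromosome 14 points sit between -0.043 and 0.013, with B28 as the lowest, while chromosome 19 reaches 0.30 in the same tumor.

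B28, the 1 tumor whose column names the diaphragm as its site, had chromosome 14 as its lowest autosome. Its median was below 0 in 23 of 24 windows of 5 Mb along the chromosome and was the lowest of the 14 tumors in 20 of them. These windows ranged from -0.11 to 0.0020, so the lower level was spread over the chromosome. A loss of 1 of 2 copies in 5.87% of the cells would give the same median. B28 also had the highest median of chromosome 19, 0.30. Centred on the median of the 19 chromosome medians instead, chromosome 14 stood at -0.038 in B28.

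**Figure D2:**
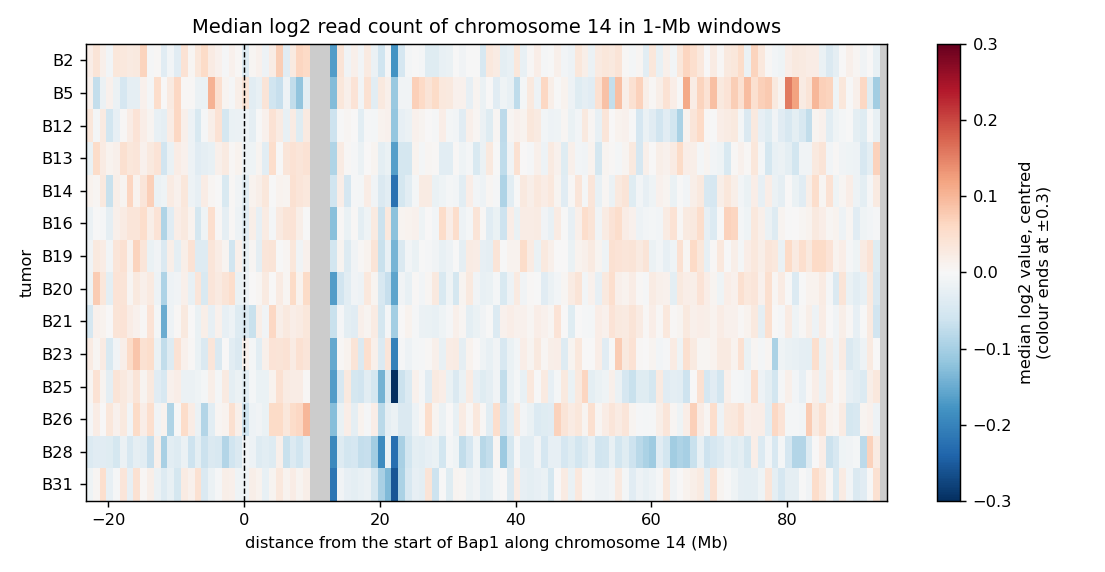
Median log2 read count of chromosome 14 in 1-Mb windows with at least 20 bins (colour, centred, ending at ±0.3), by tumor (rows) and distance from the start of Bap1 (horizontal axis, Mb, dashed line at Bap1), with grey where windows hold fewer bins. The B28 row is faintly lower along its length, and 2 dark columns about 13 and 22 Mb beyond Bap1 are low in nearly all rows.

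At Bap1 itself the bin did not stand apart from its surroundings. The centred level of the Bap1 bin was -0.016 in B2, -0.16 in B5, -0.13 in B12, -0.15 in B13, 0.099 in B14, -0.23 in B16, -0.087 in B19, -0.061 in B20, -0.030 in B21, -0.022 in B23, 0.074 in B25, 0.099 in B26, 0.21 in B28 and -0.070 in B31. Thus 10 tumors were below 0 and 4 above, and B28, the tumor with the lowest chromosome 14, had the highest Bap1 bin. Against the median of the other 99 bins within 1 Mb, the difference was lowest in B16 (-0.21), -0.032 at the median and highest in B28 (0.25). In B16 only 5 of the 99 neighbours were lower than the Bap1 bin, and in B28 97 were.

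Over the 14 tumors the Bap1 bin differed from its neighbours by -0.019 (SE 0.034, 95% confidence interval -0.090 to 0.051, adjusted p = 0.85, limma with Benjamini-Hochberg adjustment over 114213 autosomal bins), and the difference was negative in 9 of 14 tumors. The exact two-sided sign-flip permutation test of this bin gave p = 0.59. Without B5 the difference was -0.0068 (adjusted p = 0.95, limma). Of the chromosome 14 bins 34.9% had a lower mean difference. With neighbours within 250 kb in place of 1 Mb the difference was 0.000595. At an adjusted p under 0.05, 2.73% of all autosomal bins were called, 1.98% as lower than their neighbours and 0.751% as higher. The columns hold no normal DNA, so here and below a called bin cannot be told apart from a bias of that bin shared by the tumors.

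**Figure D3:**
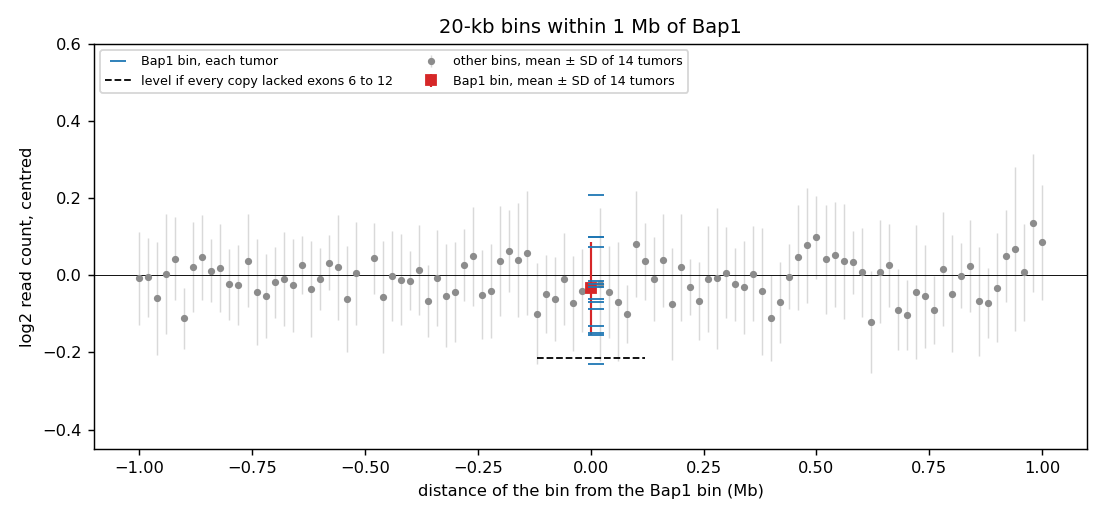
Mean centred log2 read count with the SD of 14 tumors (vertical axis) of the 20-kb bins within 1 Mb of Bap1, by distance from the Bap1 bin (horizontal axis, Mb). The Bap1 bin (red, with a blue mark per tumor) lies among its neighbours, and its tumors run from -0.23 to 0.21. The dashed level of -0.21 is what loss of the exon 6 to 12 span alone from every copy would give.

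The change from loss of the exon 6 to 12 span alone can be computed. Loss of that span from every copy in every cell would lower a 20-kb bin by 0.21 on the log2 scale. Loss from 1 of 2 copies would lower it by 0.10. Intron bases removed along with the span would make the change larger, by an amount not known here. In a single tumor, loss of the span from every copy amounts to -1.95 (B31) to -1.38 (B5) in units of the noise of 1 bin. Loss of the span alone was thus not detectable in 1 tumor. If the 10 BNC tumors had lost the span from all copies in all cells, the mean over 14 tumors would be -0.15. The lower bound of the interval at Bap1, -0.090, lies above that value. The tumor cell share, which makes any such change smaller, is unknown, and the middle 95% of chromosome 14 bins had mean differences from -0.11 to 0.088.

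Another engineered deletion showed what such bins can hold. Cdkn2b encodes a cell cycle inhibitor, and its bin (chromosome 4, 89300001 to 89320000) was lower than its neighbours by a mean of -0.97 (SE 0.068, adjusted p = 2.3e-12, limma). Without B5, which did not show the deletion, the mean was -1.04 ± 0.27 (SD, n = 13). The Bap1 bin stood higher than the Cdkn2b bin, relative to the neighbours of each, by 0.95 ± 0.45 (SD, n = 14; higher in 13 of 14 tumors, exact sign-flip permutation test, two-sided, p = 0.00024), a comparison chosen after the values were known. Without B5 it was 1.03 ± 0.34 (SD, n = 13; higher in 13 of 13 tumors, exact p = 0.00024). The unlike deletions set this direction in advance, since loss of the floxed Bap1 exons from every copy would change the bin by only -0.21. By the study's description Ink4b was also absent in the germline, whereas Bap1 was deleted by injected Cre. The comparison therefore does not show whether Bap1 was lost.

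Around Bap1 no bin was called lower. Of the 99 neighbours within 1 Mb, 0 were called lower by limma, 8 had an unadjusted p under 0.05 in that direction by limma and 10 by the sign-flip test, and 2 were called higher. Of all autosomal bins 1.98% were called lower and 0.751% higher, and 99 bins are too few to set these counts apart from those shares. The called bins held Ankrd28 (0.11, adjusted p = 0.043) and Parg (0.15, adjusted p = 0.038), of which Parg encodes the glycohydrolase that removes poly(ADP-ribose). The lowest mean difference of a neighbour was -0.11.

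Protein-coding genes within 100 kb of Bap1 were Stab1, Nisch, Tnnc1, Sema3g, Phf7, Dnah1, Capn7 and Sh3bp5. Their mean differences ran from -0.058 at Tnnc1, which encodes a troponin of heart and slow muscle, to 0.026 at Sh3bp5. Leaving out the Bap1 bin, 0 of the 10 bins within 100 kb were called in either direction by limma, against 1 lower and 1 higher at an unadjusted p under 0.05 by limma and likewise by the sign-flip test. With 2.73% of all autosomal bins called, 10 bins are too few for this count to be informative. Pbrm1, a subunit of the PBAF chromatin remodeler that is often lost together with BAP1 in human tumors, covered 7 bins with a mean difference of 0.017 ± 0.050 (SD, n = 14), and none of its bins had an adjusted p below 0.18 (limma).

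Over the tumor suppressor and growth arrest genes of the chromosome, too few bins were called to set their share apart from that of all bins. Over Pbrm1, Rb1, Lats2, Fhit, Dleu2, Tnfrsf10b and Ndrg2, 1 of 107 bins was called lower and 1 higher, against 1.98% and 0.751% of all autosomal bins. Rb1, which restrains entry into S phase, differed from its neighbours by 0.034 ± 0.084 (SD, n = 14) over 8 bins, from -0.047 in B14 to 0.28 in B5. Lats2, a kinase of the Hippo pathway downstream of Nf2, differed by 0.0059 ± 0.053 (SD, n = 14), from -0.064 in B31 to 0.070 in B26. The 2 called bins both lay in Fhit, a gene at a fragile site, which spans 80 bins. They were 10100001 to 10120000 (0.18, SE 0.037, adjusted p = 0.0032, limma) and 10520001 to 10540000 (-0.14, SE 0.032, adjusted p = 0.012), and only 40.7% and 91.0% of their 65-base windows occurred once on the chromosome, against 98.6% at the median chromosome 14 bin.

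In the group of DNA repair and chromatin genes (Parp2, Ercc6, Top2b, Supt16, Chd8 and Kat6b) 0 of 27 bins were called lower and 1 was called higher, a bin of the chromatin remodeler gene Chd8 (0.14, SE 0.032, adjusted p = 0.0080, limma). That bin was not called against the chromosome median (adjusted p = 0.14) or against neighbours within 250 kb (0.099, adjusted p = 0.11). Growth and differentiation genes (Bmp4, Wnt5a, Gata4, Bmpr1a, Rarb, Fgf9, Egr3 and Ednrb) had 2 of 42 bins called lower and 0 higher. These groups are too small to set 0, 1 or 2 called bins apart from the 1.98% and 0.751% of all autosomal bins. The called bins held Bmp4, a bone morphogenetic protein (-0.14, SE 0.036, adjusted p = 0.031, below its neighbours in 12 of 14 tumors), and the start of Egr3, an early growth response factor (-0.14, SE 0.032, adjusted p = 0.0090, below in 13 of 14). Egr3 begins at 70077203 in its called bin, 70060001 to 70080000, and its other bin (-0.023) was not called. The call at Bmp4 was lost without any 1 of B12, B13, B23, B26 and B31, and the adjusted p was highest without B26, the tumor with the lowest value of -0.37 (-0.12, adjusted p = 0.079).

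On the whole of chromosome 14, 84 of 5486 bins (1.53%) were called lower than their neighbours and 45 (0.82%) higher, near the genome-wide 1.98% and 0.751%. Bins called lower often held sequence that is repeated on the chromosome: 59.5% of them had fewer than 95% unique 65-base windows, against 23.3% of the bins that were not called. A read of the sequencing run is 65 bases long, so a window that occurs more than once cannot be placed. Of the bins with the same sign in all 14 tumors, 11 were called lower and 6 higher.

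The lowest of these was 69680001 to 69700000 over the end of Loxl2, at -1.11 (SE 0.043, adjusted p = 1.5e-19, limma), and the bin at the other side of the same region, over Slc25a37, stood at -0.52 (SE 0.036). Between them 21 bins, 69260001 to 69680000, had no reads in any of the 14 tumors. This stretch of 420 kb holds Synb, Entpd4 and Entpd4b, and parts of Slc25a37, a mitochondrial iron importer, and Loxl2, a collagen crosslinking enzyme. Unique windows made up 0 to 0.84% of its bins, and no other chromosome 14 bin was below 1%. A coding window of Slc25a37 shows the repetition, since its 65 bases occur at chr14:69272212-69272276 and again at chr14:69490462-69490526 within Gm16867 (GRCm38, plus strand).
Slc25a37 window: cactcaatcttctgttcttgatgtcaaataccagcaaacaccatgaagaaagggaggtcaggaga

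Among the bins called higher in all 14 tumors, 19400001 to 19420000 over Gm9637 and Gm21738 stood far above the rest, at 4.97 (SE 0.031, from 4.84 in B19 to 5.24 in B31). The next was a bin over Lrmda at 0.60, described below. The remaining 3 that were named held Trav1 (0.13), Gm9264 (0.12) and Ankrd28 (0.11). The call at Trav1 was lost with neighbours within 250 kb (0.072, adjusted p = 0.27, limma). At Gm9264 the call was lost without any 1 of B5, B14, B16, B20, B21, B26, B28 and B31 (adjusted p up to 0.095, without B26), and at Ankrd28 without any 1 of B2, B5, B13, B19, B20, B21, B26, B28 and B31 (adjusted p up to 0.089, without B31).

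Breakpoints depended on the method of segmentation. Recursive splits found no break in 8 of 14 tumors and 35 breaks in the other 6, namely 2 each in B5, B12 and B13, 9 each in B25 and B31 and 11 in B28. Each split is judged by itself, so a short block inside a long segment can be missed. An exact partition with segments of at least 3 bins found 78 breaks, in all 14 tumors. The segments of this paragraph are those of the recursive splits. The segment that holds Bap1 was at least 33.2 Mb long where a break was found, and its level was between -0.037 (B28) and 0.014 (B13). Segments of 500 or more bins all lay within -0.013 and 0.036 of the chromosome median of their tumor. B5 held the highest of them, 27.1 Mb from 95820001 to 122900000 at 0.036 above its chromosome median. B12 had 7.54 Mb (88580001 to 96120000) at -0.058 and B28 had 9.56 Mb (87860001 to 97420000) at -0.051, both relative to the chromosome median. B13 held 27 sparse bins from 40960001 to 44540000 at -0.18. With the median over tumors subtracted from every bin, 6 breaks were found, 4 of them in B5, and no segment lay beyond 0.2. B25 and B31 then had 0 breaks, although their low blocks described below stood apart from those of most other tumors.

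By recursive splits, segments more than 0.2 from the chromosome median numbered 11, and all were low and lay in B25, B28 and B31. The exact partition had 39 such segments in 13 tumors, with those in the T cell receptor locus found in 11 tumors. By the recursive splits 3 places recurred in each of B25, B28 and B31. The first, 43720001 to 44540000 with 15 bins, holds eosinophil ribonuclease genes (Ear1, Ear2, Ear10), angiogenin genes (Ang5, Ang6) and many predicted genes such as Gm16506. The second, 51500001 to 51740000 with 10 bins, holds Gm5622 and other predicted genes. The third, 52720001 to 53800000 with 26 bins, lies in the variable segments of the T cell receptor alpha/delta locus. The only other 2 were 51300001 to 51500000 in B25 (-0.25) and the first 11 bins of the chromosome in B31 (5920001 to 7900000, -0.55). The low start of B31 was not found in the exact partition, which left out bins with a median over tumors beyond 1. That partition began at 7680001, and its B31 segment from there to 43720000 stood 0.0074 above the chromosome median.

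In the Gm16506 block the median bin, relative to the chromosome median, was -1.04 in B25, -0.999 in B28 and -0.92 in B31. In the other 11 tumors it was between -0.29 (B19) and -0.12 (B12). The Gm5622 block stood at -0.60 in B25, -0.60 in B28 and -0.56 in B31, and between -0.30 and -0.047 in the other 11. Thus the same 3 tumors stood apart in both blocks, with no overlap, and since their segments chose the blocks this is a description without a test. In the variable segment block the medians were -0.45 in B25, -0.39 in B28 and -0.45 in B31, and between -0.32 (B23) and -0.054 (B26) in the other 11. The animal numbers of B25, B28, B31 and B26 begin alike and unlike those of the other 10 tumors, and what they stand for was not given in the sources used here. Unique windows made up 65.2% of the median bin in the first block and 70.4% in the second.

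A coding window of Gm16506 is repeated in both blocks and more often outside them. Its 65 bases (chr14:43725040-43725104, GRCm38, plus strand) occur 43 times on chromosome 14, with 5 of the copies on the minus strand. Of the copies 6 lie in the first block, 2 in the second and 34 before the first, from 41232212 on, and another starts at 44616177.
Gm16506 window: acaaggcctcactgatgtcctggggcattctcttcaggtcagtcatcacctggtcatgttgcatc

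**Figure D4:**
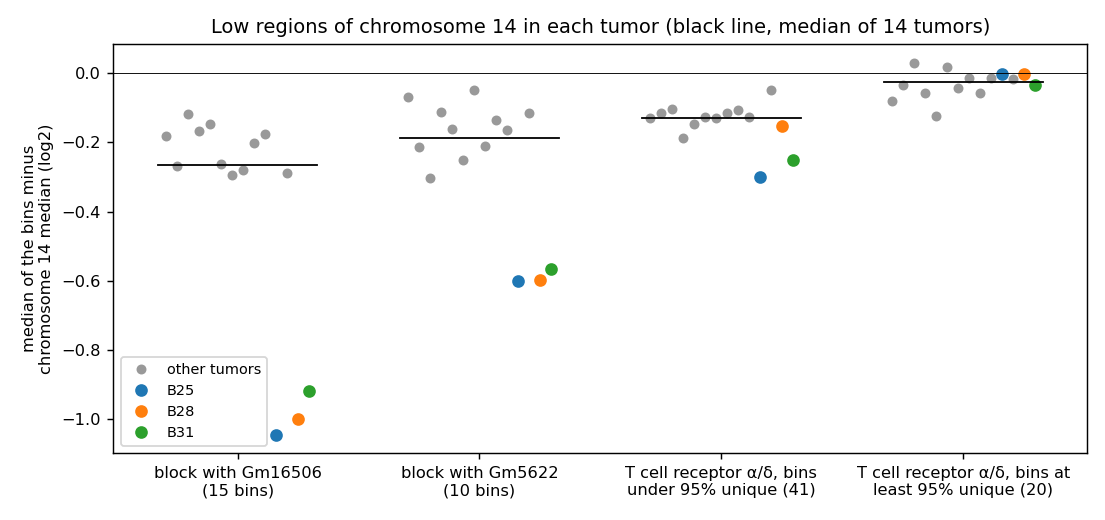
Median of the bins of 4 sets on chromosome 14 minus the chromosome median of the tumor (vertical axis, log2), with 1 point per tumor and a black line at the median of 14 tumors. B25, B28 and B31 lie below the other 11 tumors in the Gm16506 and Gm5622 blocks, and the T cell receptor bins with at least 95% unique windows lie between -0.12 and 0.031.

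Against the chromosome median, 179 chromosome 14 bins (3.26%) were called, near the 3.67% of all autosomal bins. The T cell receptor alpha/delta locus held 23 of the 130 that were lower. The locus, from Trav1 to Trac (52427928 to 54224206, 202 annotated segments), encodes the alpha and delta chains of the receptor and is cut and rejoined in T cells, which removes DNA between the joined segments. Of its 61 bins 23 (37.7%) were called lower than the chromosome median, against 2.7% of autosomal bins, and 0 were called higher by limma, against 0.966% of autosomal bins, with 1 higher at an unadjusted p under 0.05 both by limma and by the sign-flip test. The median bin of the locus was below the chromosome in 14 of 14 tumors, from -0.15 in B31 to -0.020 in B12, with a mean of -0.085 ± 0.039 (SD, n = 14; exact sign-flip permutation test, two-sided, p = 0.00012, the smallest that 14 tumors allow, adjusted p = 0.00037 over 6 antigen receptor loci).

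All 23 low bins lay upstream of the first D or J segment, among the variable segments, where 54 bins were tested. In the 7 bins from there to the end, which hold the joining segments and the constant regions, 0 were called by limma, 1 was lower at an unadjusted p under 0.05 by limma and 2 by the sign-flip test. The median of these 7 bins was nevertheless below the chromosome in 12 of 14 tumors, from -0.16 in B14 to 0.039 in B12 (median -0.044, p = 0.0021, exact sign-flip permutation test, two-sided, not adjusted). Of the 23 low bins 22 had fewer than 95% unique windows, and among the 20 bins of the locus with at least 95% only 1 was called lower. The median of those 20 bins was below the chromosome in 12 of 14 tumors, from -0.12 in B14 to 0.031 in B12 (p = 0.011, exact sign-flip permutation test, two-sided, not adjusted). The 41 less unique bins had a median below the chromosome in 14 of 14, from -0.30 in B25 to -0.048 in B26. On the whole chromosome, with the locus included, 72 of 1314 bins under 95% unique were called lower. The same held for 58 of the 4172 bins with at least 95%. Repeated sequence moved with the low level of the locus, and its part in the result was not tested.

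Repeats among the variable segments are shown by a coding window of Trav12d-1 (chr14:52844932-52844996, GRCm38, plus strand), which occurs 8 times on the chromosome, in Trav12d-1, Trav12d-3, Trav12n-1, Trav12n-3, Trav12-1, Trav12-2, Trav12-3 and Trav12-4.
Trav12d-1 window: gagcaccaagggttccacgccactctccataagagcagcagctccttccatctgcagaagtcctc

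Other antigen receptor loci except immunoglobulin lambda were low as well, and no test of a difference between loci was made. Unique windows were not counted at these loci. The share of bins called lower than the chromosome was 25.9% at T cell receptor beta, 30% at T cell receptor gamma, 21.4% at the immunoglobulin heavy chain locus and 25.7% at the kappa locus. Among all autosomal bins it was 2.7%. At the heavy chain locus 2 of 126 bins were called higher, and at beta, gamma and kappa 0 were, against 0.966% of autosomal bins. At the lambda locus 0 of 11 bins were called by limma, and at an unadjusted p under 0.05 limma had 0 lower and 1 higher and the sign-flip test 0 in both directions. Mean locus levels were -0.055 at beta (adjusted p = 0.0013), -0.084 at gamma, -0.055 at heavy, -0.059 at kappa (adjusted p = 0.00037 for each of these 3) and 0.014 at lambda (adjusted p = 0.24), by the same exact permutation test over 14 tumors.

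Tumors also differed in Lrmda, a gene tied to melanocyte differentiation (22019712 to 23056085, plus strand). It was named after its values had been seen. Of its 53 bins 4 were raised in most tumors, a pair at 22540001 to 22580000 and a pair at 22900001 to 22940000, and 1 of the 4 overlaps an annotated exon. The pairs lie 340 kb apart, and the mean of the other Lrmda bins was between -0.033 and 0.021 in each tumor. Windows unique on chromosome 14 made up 98.0, 97.0, 98.1 and 89.6% of the 4 bins, and copies on other chromosomes were not counted. Differences from the neighbours were 0.65, 0.45, 0.72 and 0.60 (adjusted p of 7.0e-08 or lower for each, limma).

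**Figure D5:**
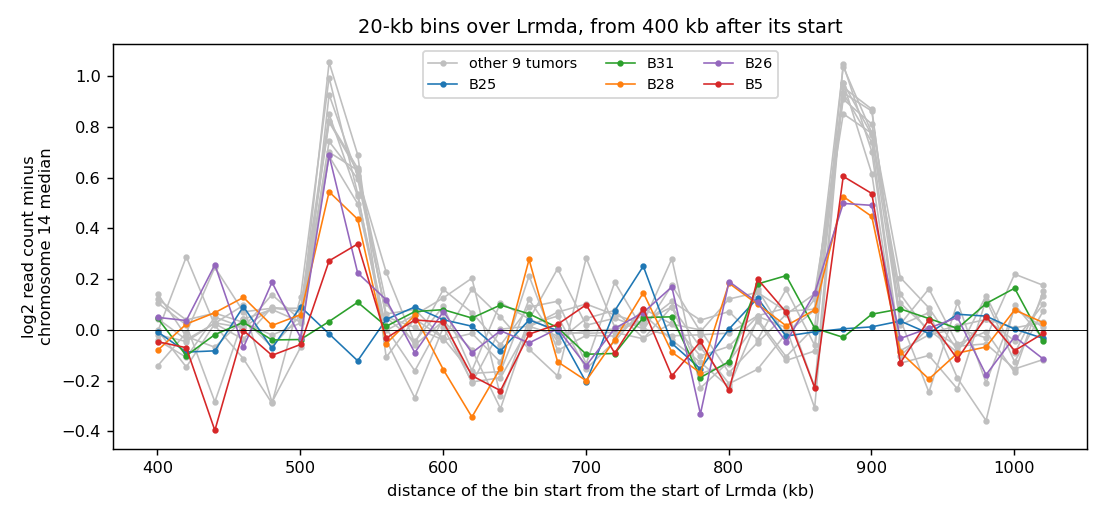
Log2 read count minus the chromosome 14 median of the tumor (vertical axis) in the 20-kb bins of Lrmda by distance from the start of the gene (horizontal axis, kb, from 400 kb on), with 1 line per tumor. The lines of 9 tumors rise at both pairs of bins, those of B5, B26 and B28 rise less, and those of B25 and B31 stay near 0.

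The 4 raised bins differed among themselves within a tumor, for example from 0.22 to 0.69 in B26 and from 0.53 to 1.05 in B23. Their mean level was -0.031 ± 0.062 (SD of the 4 bins) in B25 and 0.043 ± 0.058 in B31, the level of the rest of the chromosome. It was 0.44 ± 0.16 in B5, 0.48 ± 0.19 in B26 and 0.49 ± 0.055 in B28, 1.36 to 1.40 times the chromosome's level. In the other 9 tumors it was between 0.69 in B14 and 0.86 in B20, or 1.62 to 1.81 times. B20 and B21, from 1 animal, had 0.86 and 0.83. These 3 ranges of means do not overlap, though the single bins of the tumors do, and they were read from the values themselves and were not tested.

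Between-tumor spread was large in few bins, and those named here were chosen after their values were seen. The SD of a chromosome 14 bin over the 14 tumors was 0.12 at the median and above 0.3 in 39 bins. The highest, 0.60, belonged to the bin of Gm5622 and Gm4181 in the second low block, at -1.77 in the lowest tumor and 0.29 in the highest. Outside the blocks 1 bin over Gm48781 and Gm48782 (19040001 to 19060000) had an SD of 0.53 that came from B5, at -1.83, against a median of 0.049. The bin of Rnase2a, a ribonuclease gene of eosinophils (51240001 to 51260000), ran from -0.30 to 0.95 with a median of 0.035. Its highest values were in B25 (0.95), B28 (0.90) and B31 (0.83), the tumors that stood apart in the Gm16506 and Gm5622 blocks. The next highest was 0.21 in B26.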

How the data were processed

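Genomic DNA of 14 frozen tumors was sequenced by the authors at low coverage as 65-base single-end reads. The deposited values are described as log2 read counts per 20-kb bin of mm10. Per the submitters' processing notes and methods, reads were aligned with BWA 7.10 and counted with an adapted CopywriteR, with correction for GC content and mappability. The methods also name ratios against tail DNA, but the deposited values still hold deviations that every tumor shares, so they were read as counts and not as ratios, other than planned. Bins without reads were treated as missing. Reads per bin are unknown, and the noise of a bin stands in for depth.

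Bins complete in all tumors were tested with limma 3.58.1 in R 4.3.3 (intercept only, adjusted p under 0.05), as the bin minus the median of the other bins within 1 Mb and as the bin minus its chromosome median. Single values were tested by exact sign flips over 14 tumors (16384 flips). Since the column heads give no genotype, and nothing says how far the tumors are independent beyond their animal numbers, p-values measure the spread between these samples. Segmentation used recursive splits (penalty 4 times log n times the noise variance, at least 10 bins). Unique 65-base windows were counted on chromosome 14 of GRCm38 only. Sequences and genes come from the RefSeq assembly GRCm38 and GENCODE M21. In simulated data for the neighbour comparison (114213 bins, 14 tumors) 100 of 100 bins moved by 0.5 and 65 of 100 moved by 0.2 were called, with 7 calls among 114013 unmoved bins. The simulated bins lay around 0 and were moved alike in all 14 tumors. Deviations that real bins share over the tumors, and a change in only some tumors, were not simulated.

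The bins named were the Bap1 bin, protein-coding genes within 100 kb, fixed gene lists by role, antigen receptor loci, the 5 bins with the largest called difference each way that had the same sign in every tumor, and segments more than 0.2 from the chromosome median. 1 planned locus is not reported here. Members and lists were chosen with earlier results of these data known. Alternatives were other neighbour windows, centres, weights, filters and segmentation settings, and each tumor left out in turn. The 15 columns of RNA counts were not used. Python 3.11.15 and matplotlib 3.10.9 served for the figures.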

Additional observations from a re-analysis of the deposited data

How the results depend on the processing

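The Bap1 bin was called under no alternative for that test, with neighbours within 250 kb (where the sign turned, 0.000595) or 2 Mb (-0.024), their mean, weighted tumors, extreme bins left out, sign flips, and B20 and B21 averaged. Without B5, an alternative chosen after seeing the data, the Bap1 bin exceeded the Cdkn2b bin by 1.03 in place of 0.95. Leaving out each tumor gave -0.040 (without B28) to -0.0047 (without B16), with adjusted p-values from 0.63 to 0.97. The mean chromosome 14 level lay between -0.0025 and 0.0018 when each tumor was left out, turning sign without B28. Per tumor, other centres and the mean over bins moved the chromosome level by less than the SD between tumors. The bins of chromosome 14 called higher than their neighbours fell from 45 to between 26 and 43 without 1 tumor (29 without B2, 28 without B12, 26 without B13, 29 without B16 and 26 without B19), and those called lower ranged from 66 to 112. Against the chromosome, 130 bins were lower (96 to 152 without 1 tumor) and 49 higher (33 to 60). Of the T cell receptor alpha/delta bins 23 were lower (19 to 24 without 1 tumor), and 1 among bins at least 95% unique, an alternative chosen after seeing the data, as were the averaging of B20 and B21, the tumors left out against the chromosome and the exact partition.

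Breakpoints depended most on the settings. The 35 breaks in 6 tumors became 78 in 12 with a penalty of 2 times log n, 18 in 2 with 8 times and 22 in 6 with at least 50 bins. They became 6 in 3 once each bin's median over tumors was subtracted. B25 and B31 then had 0 breaks and B28 had 1, although their Gm16506 blocks stood below those of the other 11 tumors. That setting thus missed differences between tumors in short blocks. An exact partition with segments of at least 3 bins gave 78 breaks in 14 tumors. Its segments beyond 0.2 lay in the T cell receptor locus in 11 tumors, in the Gm16506 block in 8, in the Gm5622 block in 4, in Lrmda in 4 and elsewhere in B5 and B25 (3 segments, 0.24 to 0.45 above the chromosome median). Of single named bins 330 values under the alternatives kept their side of the threshold, 28 lost the call and 0 turned. No paired analysis was possible because the columns carry neither replicate number nor genotype. The unknown read depth and tumor cell share limit what a single bin can show, and a deletion of only the exon 6 to 12 span was not detectable in 1 tumor.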
